A study of Homo sapiens with 6 samples.

Results

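The 43 genes described here encode factors that senescent cells are known to release, together with a few receptors and adhesion proteins that are commonly counted with them. They were chosen by name from 44 symbols, of which IL8 and CXCL8 are the same gene, and all 43 have a row among the 55242 gene symbols left in the count files once rRNA genes were removed. C4-2 is a castration-resistant human prostate cancer cell line derived from LNCaP, and all cultures were grown in DMEM with fetal bovine serum. RNA was sequenced from 3 samples treated with the solvent DMSO and 3 treated with the synthetic androgen R1881 at 1 nM, a supraphysiological androgen level (SAL), each for 72 h. The replicates numbered 1 to 3 form DMSO and SAL pairs, and every value comes from 1 cell line. The study describes the sequencing as repeated independently for each condition, while the labels do not say whether replicates were separate cultures. Unless stated otherwise, p-values measure the spread left between these samples once differences between the replicate numbers are taken out.

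Cellular senescence is a lasting arrest of proliferation in which cells stay metabolically active and often secrete cytokines, chemokines, growth factors and matrix proteases. This senescence-associated secretory phenotype is driven mainly by NF-kB and C/EBPβ, is initiated at the cell surface by interleukin 1 signalling, and acts on neighbouring cells and on the secreting cell itself. SAL is known to induce senescence in prostate cancer cells, and the comparison asks which of these transcripts C4-2 cells carry and which differ after 72 h of R1881.

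Much of the secretory list lay at or under the limit of detection, as did much of the whole set of gene symbols. Of the 43 genes, 20 had at most 3 counts in every library, 6 more were too low to be tested, and 17 entered the test of SAL against DMSO. Over all 55242 gene symbols, 30353 had at most 3 counts in every library, a larger part than among the 43. Among all symbols 16835 were tested, a smaller part than among the 43. Of these 17, 3 were higher in SAL, namely SERPINE2, GDF15 and TNFRSF1A, where 11.5% of the 16835 genes tested were called higher. LIF, CSF1, INHBA and STC1 were lower, 4 of 17, where 9.37% of all genes tested were called lower. These 4 passed the filter on low counts only with their DMSO libraries, as their lowest SAL counts were 8, 2, 3 and 4. This count and the median given below depend on that filter. A call is an adjusted p under 0.05 in edgeR's quasi-likelihood test with the replicate number as a block (Benjamini-Hochberg adjustment over all genes tested), and SE is the standard error of the log2 fold change. The median log2 fold change was -0.34 over the 17 tested genes and -0.0011 over all genes tested, and both describe only genes that passed the filter on low counts.

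The libraries held between 6931042 and 9776990 counts on genes other than rRNA genes, so that the limit a count of 0 allows, 3 counts, lies between 0.329 and 0.41 CPM, the unit of level used here, which is a count relative to the TMM-scaled library size. These limits cover counting error only. All 10 luminal prostate markers were abundant enough to be tested and 6 of them were higher in SAL, beside 11.5% of all genes tested. KLK3, the gene for prostate-specific antigen, had a log2 fold change of 1.21 ± 0.10 SE (edgeR adjusted p = 3.33e-07). Of 8 leukocyte markers, 7 had at most 3 counts in every library, and PTPRC, CD3E, CD163 and ITGAM were at 0 in all 6. Their summed level ranged from 0.410 to 0.802 CPM in DMSO and from 0.384 to 0.658 CPM in SAL. Of 8 fibroblast markers, COL1A2 and PDGFRA were at 0 and only COL1A1 was tested. The summed fibroblast level ranged from 3.35 to 12.4 CPM in DMSO and from 2.56 to 10.7 CPM in SAL. Of the endothelial markers measured, CDH5 was at 0 and VWF had 4 to 35 counts. The summed level of these 4 genes was 1.49 to 4.38 CPM in DMSO and 1.41 to 4.56 CPM in SAL, and the part of any of these cell types in the results was not tested.

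The upstream sequences of the most changed members show how different their start regions are. The 250 bases before the RefSeq transcription start (GRCh38.p14) are given for SERPINE2 and GDF15, which rose most, and for INHBA, which fell most. The RefSeq table held 29 of the 43 genes, with 2 starts for SERPINE2, and the entry lies at chr19:18385908-18386157 on the plus strand for GDF15, at chr2:224031479-224031728 and chr2:224038641-224038890 on the minus strand for SERPINE2, and at chr7:41703091-41703340 on the minus strand for INHBA. Capitals mark matches on either strand to the TATA box TATAAA, the CCAAT box (ATTGG or CCAAT), the androgen receptor hexamer AGAACA, the AP-1 motif TGANTCA and the NF-kB consensus.
GDF15: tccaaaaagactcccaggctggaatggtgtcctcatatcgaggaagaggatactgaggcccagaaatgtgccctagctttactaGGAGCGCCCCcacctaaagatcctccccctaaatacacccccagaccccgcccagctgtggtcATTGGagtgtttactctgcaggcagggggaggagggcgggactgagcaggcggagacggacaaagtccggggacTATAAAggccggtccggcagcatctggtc
SERPINE2, start nearer the coding region: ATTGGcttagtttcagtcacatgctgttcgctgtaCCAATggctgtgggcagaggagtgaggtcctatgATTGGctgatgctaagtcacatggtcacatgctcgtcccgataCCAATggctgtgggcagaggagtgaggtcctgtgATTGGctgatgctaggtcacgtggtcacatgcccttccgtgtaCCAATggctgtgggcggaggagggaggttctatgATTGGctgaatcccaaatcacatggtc
SERPINE2, start farther upstream: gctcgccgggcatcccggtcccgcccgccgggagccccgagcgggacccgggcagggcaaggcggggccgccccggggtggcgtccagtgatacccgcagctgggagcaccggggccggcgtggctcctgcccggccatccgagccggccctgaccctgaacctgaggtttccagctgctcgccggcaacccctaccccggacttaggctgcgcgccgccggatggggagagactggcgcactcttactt
INHBA: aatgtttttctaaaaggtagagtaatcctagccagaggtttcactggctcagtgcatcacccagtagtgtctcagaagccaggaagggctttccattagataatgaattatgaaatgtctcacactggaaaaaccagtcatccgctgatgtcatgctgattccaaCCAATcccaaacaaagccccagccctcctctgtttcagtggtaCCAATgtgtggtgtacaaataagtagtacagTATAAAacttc

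The GDF15 window held TATAAA 29 bases before the start, ATTGG 103 bases before it and a match to the NF-kB consensus 166 bases before it. Of 35116 promoter windows of the same length in the table, 10.7% held TATAAA, 32.0% held ATTGG and 9.96% held the NF-kB consensus. The SERPINE2 window nearer the coding region held 7 matches to ATTGG, spread through stretches that resemble each other, and neither TATAAA nor the NF-kB consensus. The other SERPINE2 window was far richer in G and C (75.2% against 53.2%) and held none of the capitalised motifs. INHBA held TATAAA 11 bases before the start and 2 matches to ATTGG. None of these windows held AGAACA (12.4% of all windows) or TGANTCA (6.57%). A match is a run of letters and says nothing about binding, and the absence of one says only that the letters are not in this window.

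**Figure D1:**
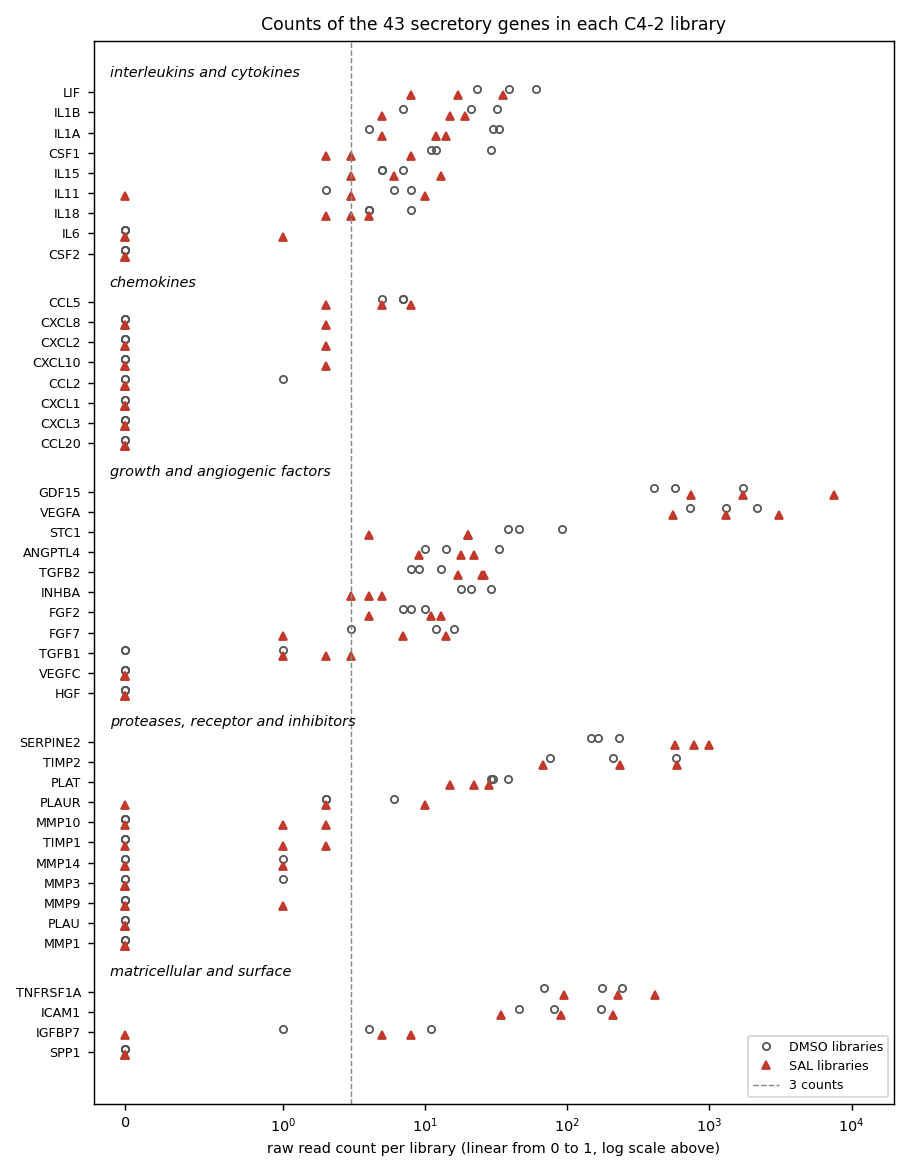
Raw counts of the 43 secretory genes in each of the 6 libraries, grouped by role, on an axis that is linear from 0 to 1 and logarithmic above (open circles, DMSO; triangles, SAL). The dashed line marks 3 counts, and 20 genes lie at or left of it in every library, among them 7 of the 8 chemokines.

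Chemokines, which attract neutrophils, monocytes and lymphocytes, were nearly absent. CXCL1, CXCL3 and CCL20 were at 0 in all 6 libraries. CXCL8, the neutrophil attractant also called interleukin 8, had 2 counts in SAL replicate 1 and 0 in the other 5 libraries, as did CXCL2 and CXCL10. CCL2, the monocyte attractant, had 1 count in DMSO replicate 1 and none elsewhere. The transcripts of CXCL1, CXCL2 and CXCL3 resemble each other, and reads that aligned to several places were not counted, so their zeros hold for uniquely placed reads. CCL5, which attracts T cells, was the only chemokine above 3 counts, at 7, 5 and 7 counts in the DMSO libraries and 5, 2 and 8 in the SAL libraries. The DMSO and SAL counts overlapped, and CCL5 did not pass the filter on low counts.

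Among the interleukins and haematopoietic cytokines, the hallmark factor IL6 had 1 count in SAL replicate 1 and 0 elsewhere, and CSF2, the granulocyte-macrophage growth factor GM-CSF, was at 0 throughout. Exons of IL6-AS1 and STEAP1B overlap those of IL6, so reads in shared parts may have been left uncounted. IL11, IL15 and IL18 had between 0 and 13 counts and were not tested. The 4 tested members of this role, IL1A, IL1B, LIF and CSF1, all had log2 fold changes below 0, and LIF and CSF1 passed the test. Summed over the 9 genes of this role, the DMSO libraries lay between 13.8 and 16.3 CPM and the SAL libraries were at 7.43, 7.57 and 7.52 CPM, with no overlap. This sum has no test of its own, and no such sum was compared over other gene sets. The 4 tested members made up most of its counts in every library, so it largely repeats their values.

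LIF encodes leukaemia inhibitory factor, an interleukin 6 family cytokine, and lies on chromosome 22 (30636442 to 30642748 in GRCh37, minus strand). In the order of the replicate numbers, it was counted 23, 60 and 39 times in DMSO and 8, 35 and 17 times in SAL. In CPM this was 2.85, 8.20 and 5.21 in DMSO and 1.03, 3.84 and 2.095 in SAL. Each SAL library was below the DMSO library of its number, while the groups overlapped because replicate 2 was high in both. The level fell 2.36-fold (log2 fold change -1.24 ± 0.27 SE, edgeR adjusted p = 0.00389), with differences of -1.28, -1.05 and -1.22 within the 3 pairs. Without replicate 3 the log2 fold change was -1.22 (adjusted p = 0.0693). Exons of 2 antisense genes, LIF-AS1 and LIF-AS2, overlap those of LIF, and the counting did not separate strands.

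CSF1 encodes macrophage colony-stimulating factor, which sustains monocytes and macrophages (chromosome 1, 110452864 to 110473614 in GRCh37, plus strand). Its counts were 11, 29 and 12 in DMSO and 2, 8 and 3 in SAL. In CPM, the DMSO libraries lay between 1.36 and 3.97 and the SAL libraries between 0.256 and 0.877, with no overlap. The fall was 4.51-fold (log2 fold change -2.17 ± 0.46 SE, edgeR adjusted p = 0.00315). The counts were small, and its SE was the largest among the called members.

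IL1A, the membrane-bound interleukin 1 that starts the secretory cascade in senescent cells, had 30, 4 and 33 counts in DMSO and 12, 5 and 14 in SAL. Replicates 1 and 3 were lower in SAL and replicate 2 was near 0.55 CPM in both. The log2 fold change was -1.12 (standard error 0.38), and the adjusted p of 0.0503 (edgeR) fell just outside the threshold. It was 0.0498 with DESeq2 size factors, 0.0489 with mitochondrial genes removed and 0.0246 without replicate 2. With DESeq2 it was 0.325. IL1B, the secreted form, had 32, 7 and 21 counts in DMSO and 15, 5 and 19 in SAL, a log2 fold change of -0.68 ± 0.36 SE (edgeR adjusted p = 0.217).

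GDF15 had the highest level of all 43 genes per kilobase of exon. It encodes growth differentiation factor 15, a stress-induced member of the TGF-β superfamily that signals to the brain stem to lower appetite (chromosome 19, 18485541 to 18499986 in GRCh37, plus strand). It was counted 407, 1732 and 575 times in DMSO and 741, 7533 and 1714 times in SAL. In CPM these were 50.4, 237 and 76.8 in DMSO and 94.9, 826 and 211 in SAL. Every SAL library exceeded the DMSO library of its number, but SAL replicates 1 and 3 lay below DMSO replicate 2, so the groups overlapped. GDF15 rose 2.66-fold (log2 fold change 1.41 ± 0.15 SE, edgeR adjusted p = 7.65e-05), and the 3 pairs differed by between 0.91 and 1.8 on the log2 scale. Under the settings tried, leaving out each replicate number included, its log2 fold change stayed between 1.18 and 1.64.

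INHBA encodes the activin A subunit, another ligand of the TGF-β superfamily (chromosome 7, 41706766 to 41745432 in GRCh37, minus strand). It had 21, 29 and 18 counts in DMSO and 3, 4 and 5 in SAL, which is 2.41 to 3.97 CPM against 0.384 to 0.616 CPM. All SAL libraries were below all DMSO libraries. The fall of 6.08-fold was the largest among the tested members (log2 fold change -2.60 ± 0.45 SE, edgeR adjusted p = 0.000589). Exons of the antisense gene INHBA-AS1 overlap those of INHBA, and reads lying wholly in a part shared by annotated genes were left uncounted as ambiguous. TGFB2, a further ligand of this superfamily, went the other way, with 8, 9 and 13 counts in DMSO and 25, 17 and 26 in SAL. Its groups did not overlap, yet its log2 fold change of 1.05 ± 0.37 SE (edgeR adjusted p = 0.0579) missed the threshold, and exons of TGFB2-AS1 overlap it. TGFB1 was at 0, 1 and 0 counts in DMSO and at 1, 3 and 2 counts in SAL, and exons of HNRNPUL1 overlap those of TGFB1.

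STC1 encodes stanniocalcin 1, a secreted glycoprotein of calcium and phosphate handling (chromosome 8, 23699442 to 23712319 in GRCh37, minus strand). It had 38, 46 and 91 counts in DMSO and 4, 20 and 20 in SAL. The DMSO libraries lay between 4.71 and 12.2 CPM and the SAL libraries between 0.512 and 2.46 CPM. STC1 fell 4.44-fold without overlap of the groups (log2 fold change -2.15 ± 0.30 SE, edgeR adjusted p = 9.20e-05), by 2.70, 1.42 and 2.19 on the log2 scale in the 3 pairs.

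The vascular factor VEGFA, the main inducer of endothelial growth, had the second highest level per kilobase and did not pass the test. It had 90.7, 293 and 176 CPM in DMSO and 71.3, 338 and 161 CPM in SAL, and the replicates differed far more than the treatments. Its log2 fold change was -0.08 (adjusted p = 0.663 from edgeR), with an interval of 1.96 standard errors from -0.29 to 0.13. VEGFC, the lymphatic factor, and HGF, the ligand of the MET receptor, were at 0 in all 6 libraries. ANGPTL4, a lipoprotein lipase inhibitor with vascular actions, was counted 10 to 33 times in DMSO libraries and 9 to 22 times in SAL libraries (log2 fold change -0.34, adjusted p = 0.589). FGF2 and FGF7 had 16 counts at most in any library, and their log2 fold changes were 0.03 and -0.59 (edgeR adjusted p = 0.98 and 0.457). The intervals of 1.96 SE ran from -0.92 to 0.98 for FGF2 and from -1.57 to 0.39 for FGF7. Exons of NUDT6 overlap those of FGF2.

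SERPINE2 had the smallest adjusted p of the members. It encodes protease nexin 1, a secreted inhibitor of thrombin, plasmin and urokinase (chromosome 2, 224839762 to 224904035 in GRCh37, minus strand). It had 165, 146 and 231 counts in DMSO and 575, 778 and 996 in SAL. In CPM, the DMSO libraries were at 20.4, 20.0 and 30.9 and the SAL libraries at 73.6, 85.3 and 123. The lowest SAL library was above the highest DMSO library. The mean rose from 23.8 ± 6.16 to 93.9 ± 25.6 CPM (SD, n = 3), and the fitted rise was 3.94-fold (log2 fold change 1.98 ± 0.11 SE, edgeR adjusted p = 4.30e-09), and the pairs gave 1.84, 2.08 and 1.98. Across the settings tried its log2 fold change ranged from 1.91 to 2.04.

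Among the secretory genes described here, the proteases that SERPINE2 or the TIMP proteins inhibit mostly had at most 3 counts in every library. The genes for thrombin and plasmin were not on the lists. PLAU, the urokinase gene, and MMP1, the interstitial collagenase, were at 0 in all libraries. Exons of C10orf55 overlap those of PLAU, WTAPP1 those of MMP1 and MMP3, and SLC12A5-AS1 those of MMP9. Reads in such shared parts may have been left uncounted. MMP3, MMP9 and MMP14 had at most 1 count in any library, and MMP10 had at most 2. PLAUR, the urokinase receptor, had 0 to 10 counts and was not tested. PLAT, the tissue plasminogen activator, had 38, 29 and 30 counts in DMSO and 28, 22 and 15 in SAL. Its CPM were lower in every SAL library than in any DMSO library, but its log2 fold change of -0.71 ± 0.28 SE (edgeR adjusted p = 0.0922) did not pass. TIMP1 had at most 2 counts, whereas TIMP2 ranged from 9.29 to 80.0 CPM in DMSO and from 8.58 to 64.8 CPM in SAL. The log2 fold change of TIMP2 was -0.15 (adjusted p = 0.456), with an interval of 1.96 standard errors from -0.39 to 0.10, and exons of CEP295NL overlap those of TIMP2.

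Of the remaining members, TNFRSF1A, the main receptor for TNF (chromosome 12, 6437923 to 6451280 in GRCh37, minus strand), had 68, 244 and 175 counts in DMSO and 94, 416 and 226 in SAL. The groups overlapped, and within the pairs the SAL library was above its DMSO partner by 0.50, 0.45 and 0.25 on the log2 scale. Its log2 fold change of 0.40 (standard error 0.13) had an adjusted p of 0.0453 (edgeR), and the call was lost with DESeq2 (adjusted p = 0.21), without replicate 2 (adjusted p = 0.215) and without replicate 3 (adjusted p = 0.188). ICAM1, the adhesion molecule that leukocytes bind, ranged from 5.70 to 23.7 CPM in DMSO and from 4.35 to 23.0 CPM in SAL (log2 fold change -0.09, adjusted p = 0.763 from edgeR). IGFBP7 had 0 to 11 counts, and the osteopontin gene SPP1 was at 0 in all libraries. Exons of other genes overlap those of both.

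**Figure D2:**
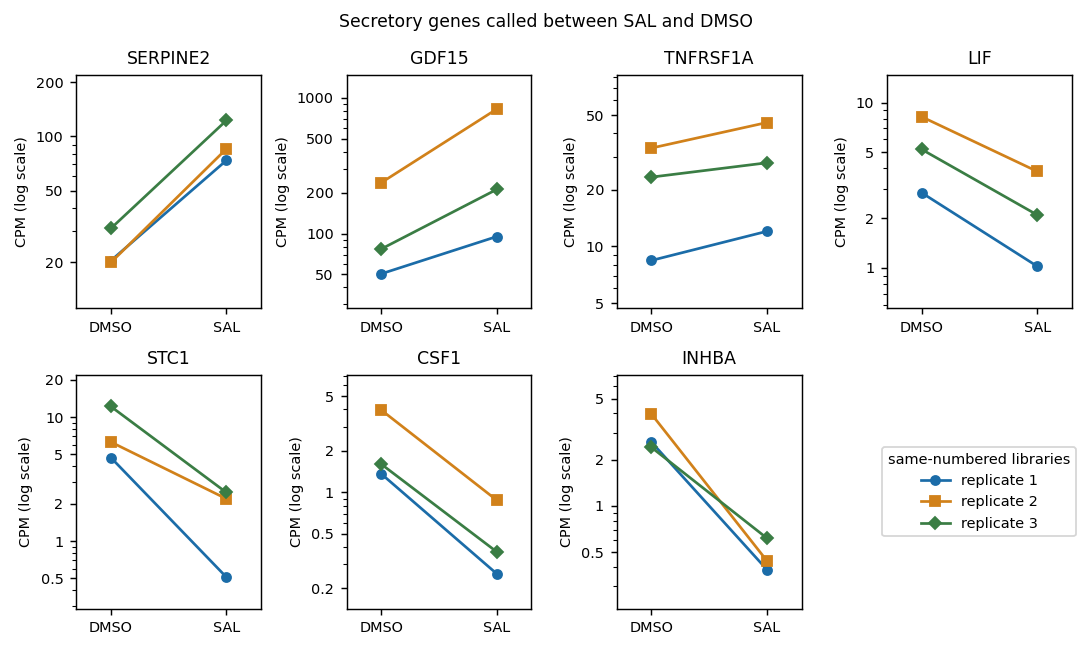
CPM (log scale) of the 7 called secretory genes, with a line for each replicate number joining its DMSO and SAL libraries. All lines of SERPINE2, GDF15 and TNFRSF1A go up and all lines of LIF, STC1, CSF1 and INHBA go down, while the starting levels of GDF15 range from 50.4 to 237 CPM.

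**Figure D3:**
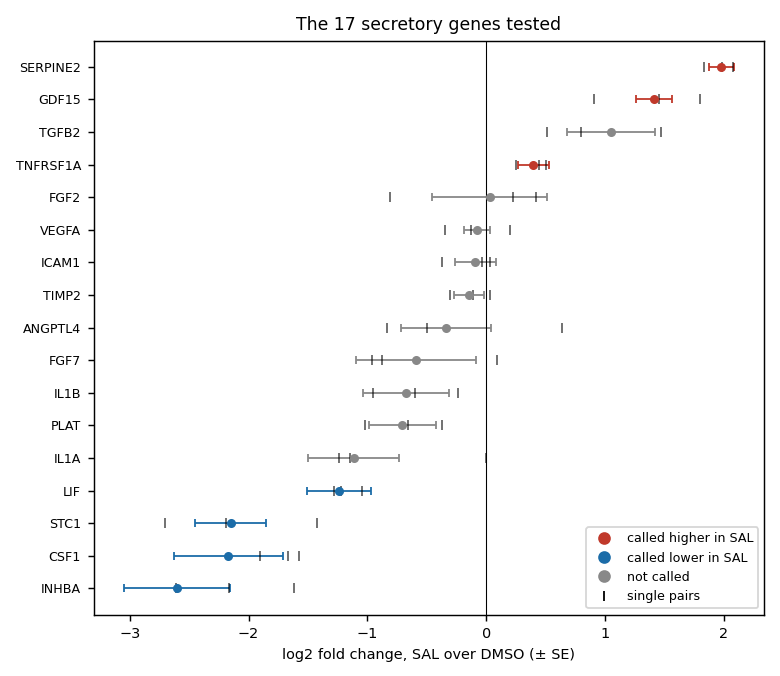
Log2 fold changes of SAL over DMSO for the 17 secretory genes tested, as the edgeR estimate with its standard error (points and bars) and the differences within the 3 pairs, computed with a prior count of 2 (ticks). Estimates run from -2.60 for INHBA to 1.98 for SERPINE2, and the pairs of FGF2, FGF7, IL1A, VEGFA, ANGPTL4, TIMP2 and ICAM1 lie on both sides of 0.

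The levels of these genes followed the replicate number in both groups. Over all genes tested, deviations from the group means also correlated between same-numbered libraries (0.886, 0.856 and 0.739). Of the 17 tested members, 14 had their highest DMSO and their highest SAL library under the same number. Replicate 2 was highest in both groups for 8 genes, which were GDF15, VEGFA, TIMP2, ICAM1, TNFRSF1A, LIF, CSF1 and ANGPTL4, and lowest in both for 4, which were IL1A, IL1B, FGF2 and FGF7. The replicate 2 libraries also had the lowest shares of reads outside annotated exons, 30.1% in DMSO and 24.0% in SAL against 37.3% to 48.3% in the other 4 libraries. The part of this share in the levels was not tested. Of the 17 genes, 10 had the same direction in all 3 pairs. Neither this count nor that of shared highest replicate numbers was made over all genes tested. Of the 17 genes, 6, namely SERPINE2, TGFB2, PLAT, CSF1, INHBA and STC1, had groups that did not overlap, where 7.51% of all genes tested did not overlap. Without the replicate block none of the 17 was called, with adjusted p-values from 0.145 for INHBA to 1.00. In that edgeR fit, 4 of the 17 had an unadjusted p under 0.05, beside 654 of the 16835 genes tested.

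Per kilobase of merged exons, GDF15 was the most abundant member in both groups, at 58.2 ± 48.4 CPM per kb in DMSO and 181 ± 188 in SAL (SD, n = 3). In DMSO it was followed by VEGFA at 12.9 ± 7.05, TIMP2 at 6.30 ± 5.90, TNFRSF1A at 5.17 ± 2.99, ICAM1 at 3.88 ± 2.68 and SERPINE2 at 2.65 ± 0.69 CPM per kb. In SAL, SERPINE2 moved to the third place with 10.5 ± 2.86 CPM per kb, after VEGFA with 13.2 ± 9.39. GDF15 was above VEGFA, and VEGFA above TIMP2, in each of the 6 libraries. The order of TIMP2 and TNFRSF1A differed between libraries, as did that of ICAM1 and SERPINE2 in DMSO and of VEGFA and SERPINE2 in SAL. These ranks depend on the merged exon length, 2087 bases for GDF15 and 14431 for VEGFA. In CPM without this scaling, VEGFA was above GDF15 in each DMSO library and below it in each SAL library. The transcript pool of the 43 genes was held by few of them, since GDF15, VEGFA, SERPINE2 and TIMP2, chosen after their levels were seen, took 78.1% to 86.8% of its counts in DMSO and 86.7% to 93.7% in SAL. In RNA from whole cultures, fewer cells with a transcript and less RNA per cell cannot be told apart.

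Regulators that control these secreted factors were mostly abundant enough to be tested. Of 35 listed regulators, 29 were tested, and 7 were higher and 1 was lower in SAL, which is 24.1% and 3.45% of those tested against 11.5% and 9.37% of all genes tested. Their median log2 fold change was 0.12. The 4 with the smallest adjusted p among those higher were MTOR, NFKBIA, NFKB2 and TNFAIP3, and the others were STAT3, MYD88 and IRF3. The call of IRF3 was lost with DESeq2 (adjusted p = 0.188), without replicate 2 and without replicate 3, that of MYD88 without replicate 1 and without replicate 3, and that of STAT3 without replicate 3. HMGB1, a chromatin protein that is released as an alarm signal, was lower.

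MTOR, the kinase that sustains translation of secretory transcripts, had 49.2, 169 and 134 CPM in DMSO and 108, 323 and 288 CPM in SAL, a log2 fold change of 1.06 ± 0.09 SE (edgeR adjusted p = 1.07e-06). NFKBIA encodes the NF-kB inhibitor IκBα and is itself an NF-kB target. It had 80.2, 53.2 and 40.4 CPM in DMSO and 134, 101 and 80.0 CPM in SAL (log2 fold change 0.88 ± 0.10 SE, edgeR adjusted p = 1.12e-05). NFKB2, the precursor of the p52 subunit of NF-kB, rose by 0.89 on the log2 scale (edgeR adjusted p = 0.000547). TNFAIP3, which encodes the A20 brake on NF-kB, had 7, 14 and 9 counts in DMSO and 29, 31 and 56 in SAL, without overlap (log2 fold change 1.78, adjusted p = 0.00226, and 0.102 without replicate 3). HMGB1 fell by 0.42 on the log2 scale (edgeR adjusted p = 0.00536). Its call was lost without replicate 3 (edgeR adjusted p = 0.127). Without replicate 3, 3 of 29 regulators tested were called higher and 0 lower, beside 750 and 483 of the 16992 genes tested. Without replicate 2, 6 of 30 were higher and 3 lower, beside 1572 and 1367 of 17267 genes. The NF-kB subunits RELA and NFKB1 and the C/EBPβ gene CEBPB, named for their place in the pathway, had log2 fold changes of 0.21, -0.20 and -0.36 and did not pass the test.

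The receptors of the 43 factors were tested for 21 of 37 listed genes, and 7 were higher and 3 were lower in SAL (33.3% and 14.3% of those tested, beside 11.5% and 9.37% of all genes tested). LIFR, the receptor subunit for LIF, had 97.6, 68.2 and 115 CPM in DMSO and 575, 244 and 623 CPM in SAL. Every SAL library exceeded every DMSO library, and the log2 fold change was 2.29 ± 0.13 SE (edgeR adjusted p = 1.04e-07), opposite in sign to that of LIF itself. Exons of LIFR-AS1 overlap those of LIFR. IL6ST, the gp130 subunit that LIFR pairs with, and IL6R rose by 0.37 and 0.47 on the log2 scale (edgeR adjusted p = 0.03 and 0.00177), although IL6 was at or near 0 in every library. The IL6ST call was lost with DESeq2 (adjusted p = 0.0873), and both calls were lost without replicate 3 (edgeR adjusted p = 0.423 for IL6ST and 0.0885 for IL6R).

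IL1R1, the signalling receptor for both interleukins 1, had 29.5, 78.8 and 71.2 CPM in DMSO and 54.6, 127 and 124 CPM in SAL (log2 fold change 0.79 ± 0.10 SE, edgeR adjusted p = 2.96e-05). ITGAV, an integrin chain that binds osteopontin and latent TGF-β, had 122 to 182 CPM in DMSO and 184 to 409 CPM in SAL (log2 fold change 1.00, adjusted p = 4.35e-05). FGFR3 rose from 5, 15 and 24 counts to 26, 101 and 71 (log2 fold change 1.99, adjusted p = 0.000123). The remaining receptor called higher was TGFBR2, at 3, 24 and 15 counts in DMSO and 11, 61 and 52 in SAL, and its call was lost without replicate 3 (edgeR adjusted p = 0.128). Those lower were MET, TGFBR3 and IL18R1, which fell by 2.41, 0.48 and 1.15 on the log2 scale (edgeR adjusted p = 0.0124, 0.0139 and 0.037). MET, the receptor of HGF, had 12 to 19 counts in DMSO and 1, 1 and 7 in SAL. Its log2 fold change was -1.71 without replicate 2 (edgeR adjusted p = 0.104) and -4.00 without replicate 3. Without replicate 2 none of the 3 lower receptors was called, beside 1367 of 17267 genes called lower. Without replicate 3, 4 of 20 receptors tested were higher and 1 lower, beside 750 and 483 of 16992 genes. With DESeq2, TGFBR3 (adjusted p = 0.0592) and IL18R1 (adjusted p = 0.163) were not called, and IL18R1 was not called without replicate 1 either (edgeR adjusted p = 0.0702). The chemokine receptors CXCR1, CXCR2, CCR2 and CCR6, the GDF15 receptor GFRAL and CD44 had at most 1 count in any library.

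**Figure D4:**
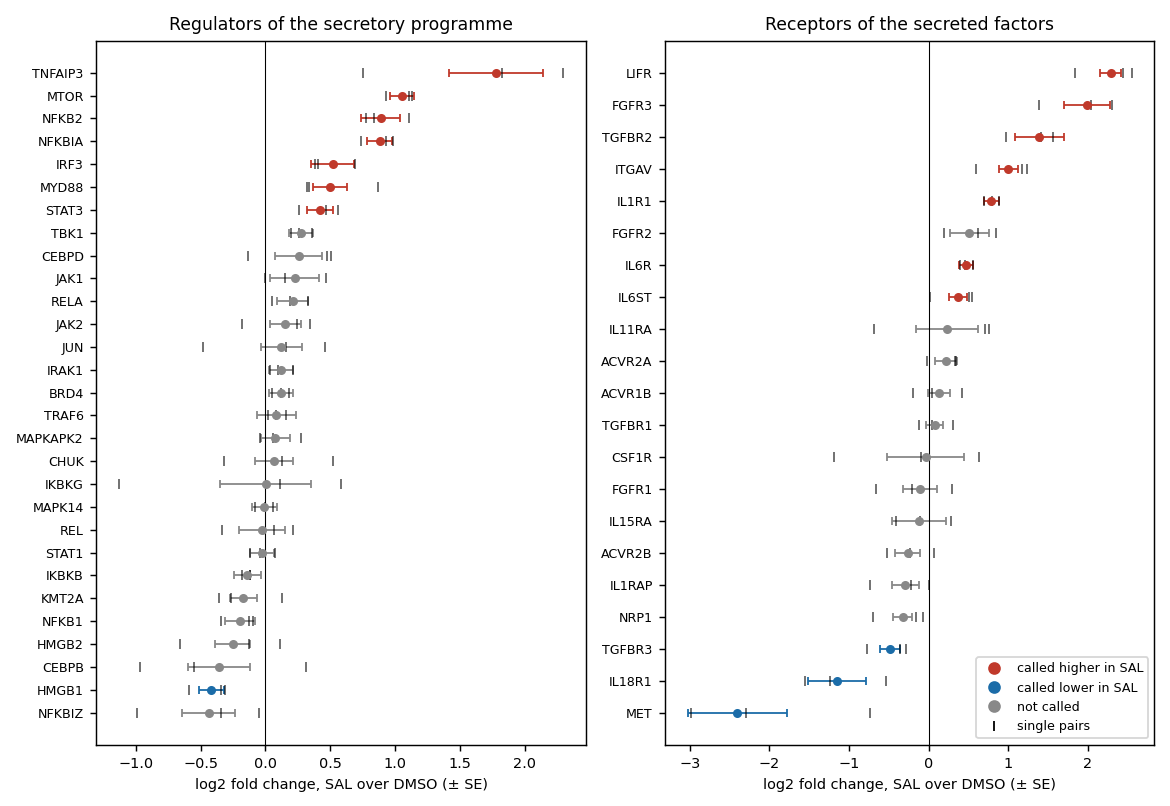
Log2 fold changes of SAL over DMSO with standard errors (points and bars) and the 3 pair differences (ticks) for the 29 regulators (left) and 21 receptors (right) tested. TNFAIP3 at 1.78 and LIFR at 2.29 lie farthest to the right, and MET at -2.41 lies farthest to the left.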

How the data were processed

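The authors deposited counts of reads for each gene symbol in 6 libraries, with no scaling. By their methods, reads were trimmed, only the first mate was aligned (TopHat2 2.1.0, hg19), and HTSeq 0.11.2 assigned it to exons of GENCODE v19 without strand and without reads that align to several places. The kit is stranded, but the counting was not. Of 55765 gene symbols, 523 rRNA genes were removed as in the methods of the study. They took 11.9% to 27.8% of the gene counts. The 5 closing tallies stayed out of library sizes and tests. Reads outside annotated exons, which include reads in introns, made up 24.0% to 48.3% of the reads.

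Genes passing filterByExpr (16835) were normalized with TMM and tested with the quasi-likelihood test of edgeR 4.0.16 (robust) with the replicate number as a block, since the study used a paired test. This filter asks for enough counts in any 3 libraries, so a gene can pass through the group where it is high. LIF, CSF1, INHBA, STC1, MET, IL18R1 and KITLG needed DMSO libraries to pass, and TNFAIP3, FGFR3 and TGFBR2 needed SAL libraries. As a check of the pairing, same-numbered libraries correlated at 0.886, 0.856 and 0.739 in their deviations from their group means, and libraries of other numbers at 0.039 or less. The SE was obtained from the fold change and the F statistic of the same fit, as the ratio of the first to the root of the second. Differences within pairs use a prior count of 2. The fit was also run on simulated data, the outcome is not reported here, and no result rests on it. The alternatives were DESeq2 1.42.0, its size factors, no block, other filters, rRNA kept, mitochondrial genes removed and each replicate left out.

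The members were chosen by name and the lists by role, both with earlier results of these data known. All members are named. Of the further lists, up to 4 called genes per direction with the smallest adjusted p are described. The genes that only complete a count, those named for their place in a pathway, and MMP2, MMP12 and MMP13 were added afterwards. Gene positions, exon lengths and overlaps are from GRCh37 with a lifted GENCODE v44, a later release than that used for counting. LNCaP libraries and the endothelial marker PECAM1 were not analysed here. With 3 pairs, the number of libraries limits the precision.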

Additional observations from a re-analysis of the deposited data

How the results depend on the processing

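Leaving out each replicate number in turn gave 2 to 3 members higher and 3 to 5 lower, against 750 to 2443 genes higher and 483 to 1955 lower among all genes tested. The lowest counts over all genes came without replicate 3. DESeq2 with the replicate block called 1290 genes higher in place of 1931 and 950 lower in place of 1577. It called 2 members higher and 4 lower. The fit with no replicate block called 18 genes higher and 3 lower, and 0 members in either direction. With at least 10 counts in every library 7 members could be tested. Among them, 3 were higher and 0 lower, beside 1717 and 1417 of 13999 genes. None of the 4 members called lower in the main fit passed that minimum. Counting as not expressed only members at 0 in every library gave 9 in place of 20, beside 20854 in place of 30353 among all 55242 gene symbols. Over all alternatives to the fit, 144 of the values of single members kept their side of the threshold, 11 lost a call (7 of them without the block) and 3 gained one, all 3 for IL1A. Depth limits LIF, CSF1, INHBA and STC1, which had at most 35 counts in any SAL library, and leaves members under 3 counts undetectable rather than absent.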

Other observations

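Of 45 further secretory genes outside the 43, 19 were tested in C4-2 cells, 20 had at most 3 counts in every library, and 2 were higher and 3 lower in SAL (10.5% and 15.8% of those tested against 11.5% and 9.37% of all genes tested, edgeR with the replicate block). FN1, the matrix protein fibronectin, had 614, 4356 and 3371 CPM in DMSO replicates 1, 2 and 3 and 338, 1830 and 1384 CPM in SAL. It fell in all 3 pairs, by 0.86, 1.25 and 1.28 on the log2 scale (log2 fold change -1.13, standard error 0.11, adjusted p = 1.87e-06), while the groups overlapped because replicate 1 was low in both.

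KITLG, the ligand of the KIT receptor, fell from 103, 27 and 62 counts to 53, 5 and 28 (log2 fold change -1.31, adjusted p = 0.00341), and PDGFA, a mesenchymal mitogen, fell by 0.58 on the log2 scale (adjusted p = 0.0125, lost with DESeq2, without replicate 2 and without replicate 3). The lysosomal protease gene CTSD and the vascular factor VEGFB rose by 0.72 and 0.53 on the log2 scale (adjusted p = 0.000315 and 0.00464), and neither was called without replicate 3.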
